A study of Bos taurus with 6 samples.

Results

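The genes described here belong to the antioxidant and glutathione systems and to the targets of the transcription factor NRF2. They were taken as every probe of the array whose annotated gene symbol was one of 43 listed symbols, with SEPP1 read as SELENOP. Of the 43 symbols, 42 had at least 1 probe and 41 had at least 1 probe bright enough to be kept, together 68 of 76 probes, among 12332 genes and 31957 kept probes in all. FTL, the ferritin light chain, was matched to no probe and is not analysed here. SOD3, the extracellular superoxide dismutase, was left out because its probe exceeded the negative control spots on only 1 of 6 arrays.

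The comparison was between 3 superstimulated cows (group 1) and 3 non-superstimulated cows (group 4), all multiparous beef cattle. Superstimulation is a course of gonadotropins that lets many ovarian follicles grow together. The labels give gonadotropins as the exogenous hormone for both groups, so the control group's own treatment is not clear from them, and they name no tissue. Each of the 3 cow pairs was hybridised on a two-colour array and again with the dyes exchanged, on a second slide, so that 6 arrays gave 3 pairs and the pair was the replicate.

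The direction of the ratios is not settled by the labels. By the arrays' own dye fields the superstimulated cow was in Cy5 on the first slide (arrays 1 to 3) and in Cy3 on the second (arrays 4 to 6), while an example in the design text has it the other way round. All ratios below are superstimulated over non-superstimulated by the dye fields, on a log2 scale; "higher" and "lower" refer to that scale, and every sign turns if the design text is right. The levels per cow follow the same dye fields, so the superstimulated and non-superstimulated cow of each pair would then change places too. The sizes of the ratios, and which genes share a sign, do not depend on the dye assignment.

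NRF2, the product of NFE2L2, is held in the cytoplasm and sent to degradation by KEAP1 and is released when oxidants or electrophiles modify KEAP1. In the nucleus it pairs with a small MAF protein and switches on genes for glutathione synthesis, thioredoxin reduction, quinone and heme breakdown, iron storage and NADPH supply. Superoxide dismutases, catalase, peroxiredoxins and the selenium-dependent glutathione peroxidases then remove superoxide and peroxides. In the ovary these systems are studied because steroid synthesis and the inflammation-like events of ovulation produce reactive oxygen species.

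Median probe intensity was 152 to 299 in red and 161 to 283 in green. Of all probes, 47.3% to 63.2% exceeded the 95th percentile of the negative controls in red and 65.4% to 71.2% in green, and of the member probes 77.6% to 86.8% and 85.5% to 92.1%. Of the 41 genes, 36 exceeded the controls in both channels on all 6 arrays, where 59.2% of all genes did. Precision throughout is limited by the small number of cow pairs and of arrays.

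No member differed between the groups past the threshold. With limma and Benjamini-Hochberg adjustment, 0 of 41 members and 0% of the 12332 genes passed at 0.05, and no member had an adjusted p below 0.995. At an unadjusted limma p under 0.05 there were 4 members, where 3.59% of all genes reached it. MGST3 and SELENOP were lower, beside 2.26% of all genes, and PRDX5 and GPX4 higher, beside 1.33%. Of the 41 members 23 had a mean ratio above 0 and 18 below, with a median of 0.07, where the median of all genes was -0.02 and 45.3% lay above 0. With 3 pairs an exact sign-flip test of a single gene cannot give a two-sided p below 0.25.

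The members' median absolute mean ratio was 0.26 against 0.12 for all genes, while 10 of the 41, such as SOD2 and GSTA1, lay nearer 0 than most genes did. Among genes above the controls in both channels on all arrays the medians were 0.285 for members and 0.19 for all. Of the members, 4 had a mean ratio of at least 2-fold, where 2.48% of all genes did. Those 4 were MGST2 and SELENOP on the lower side and SRXN1 and PRDX1 on the higher. The sign was the same in all 3 pairs for 10 members, or 24.4%, where 23% of all genes had 1 sign. Of the 10, MAFG, GCLM, PRDX5 and GPX4 were higher (9.89% of all genes) and GSS, TXNRD1, SELENOP, MGST2, MGST3 and ME1 lower (13.1%). It was the same on all 6 arrays for 6 members, where 7.13% of all genes reached that: SELENOP, MGST3 and GSS were lower and PRDX5, GPX4 and MAFG higher.

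**Figure D1:**
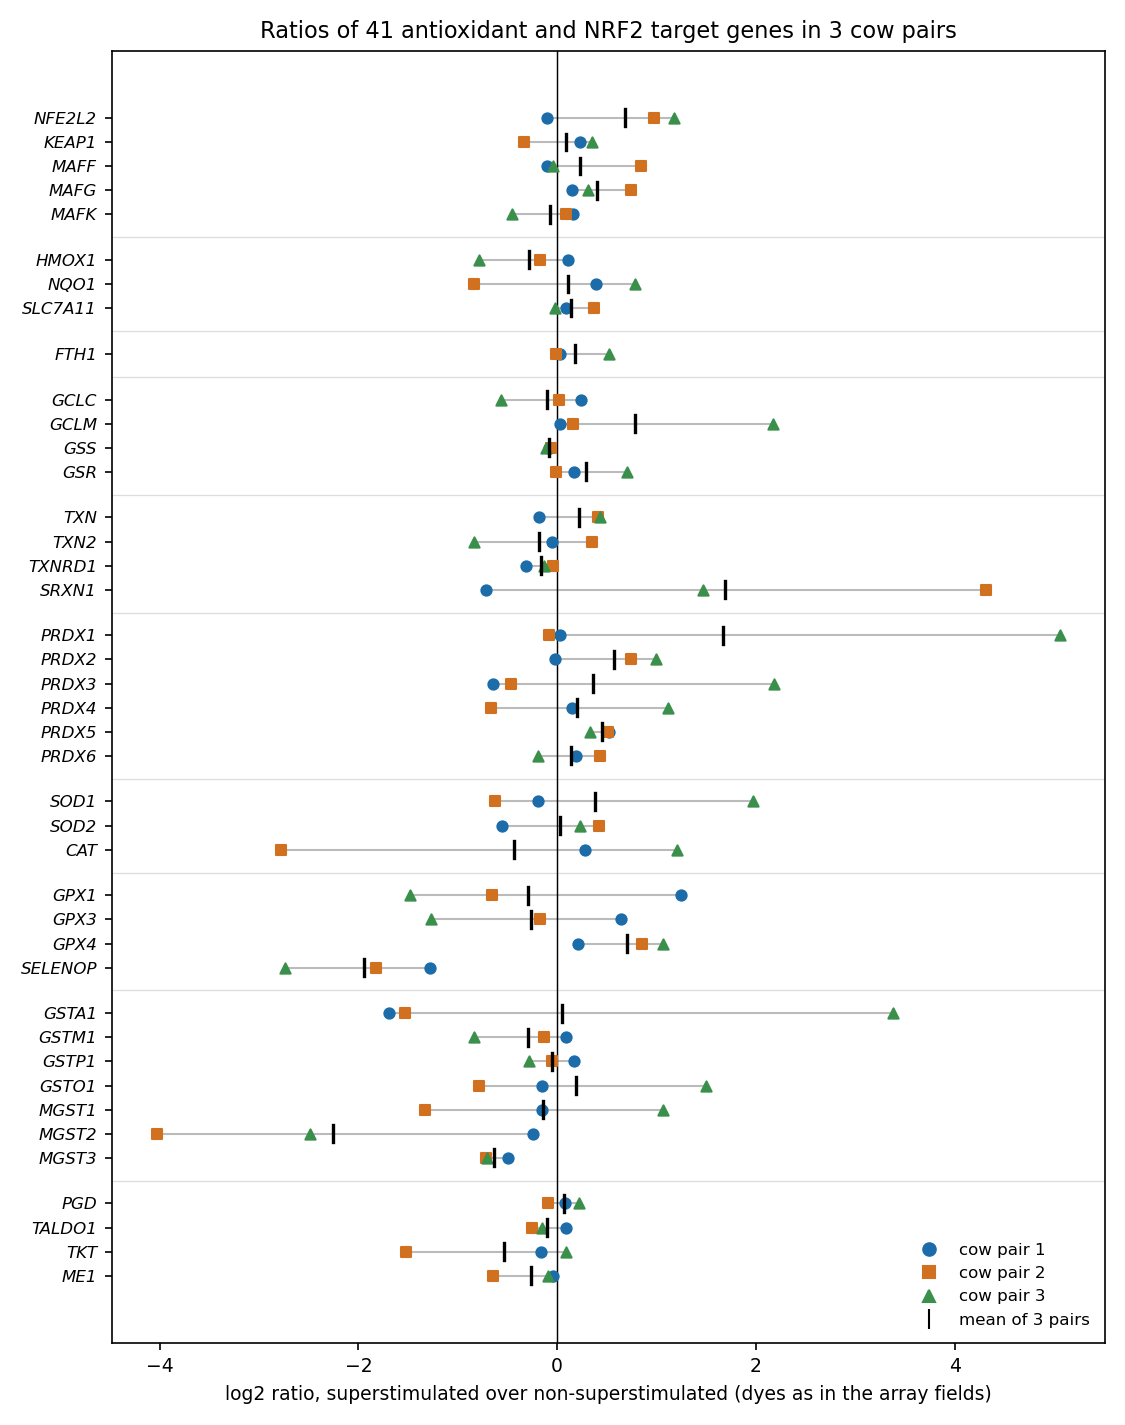
Log2 ratio of superstimulated over non-superstimulated (x axis) for each of the 41 members (rows, grouped by role), with 1 symbol per cow pair, a grey line for their range and a black bar for their mean. SELENOP, MGST2 and MGST3 lie left of 0 and PRDX5, GPX4 and MAFG right of 0 in all 3 pairs, whereas PRDX1, GSTA1 and CAT span 0.

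Among the glutathione peroxidases and the selenium carrier, SELENOP gave the clearest shift. SELENOP encodes selenoprotein P, the plasma protein that carries selenium to tissues. Its log2 ratio was -1.28 in pair 1, -1.83 in pair 2 and -2.73 in pair 3, a mean of -1.95 ± 0.74 (SD, n = 3 pairs). It was below 0 on all 6 arrays, at -1.14, -1.80 and -2.40 on the first slide and -1.41, -1.85 and -3.07 on the swapped slide. The unadjusted limma p was 0.00784 and the adjusted p 0.995, and 16 of the 12332 genes had a lower mean ratio.

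Measured per cow, from each dye channel separately, SELENOP had log2 intensities of 9.94, 7.83 and 9.52 in superstimulated cows 1, 2 and 3. The non-superstimulated cows 1, 2 and 3 had 11.22, 9.65 and 12.26. The groups overlapped, because non-superstimulated cow 2 lay below superstimulated cow 1. Each cow of pair 2 was the lowest of its group. Within each pair the superstimulated cow was lower. In an unpaired fit of 3 cows against 3 the unadjusted limma p was 0.0695, and without pair 1, 2 or 3 the mean ratio ranged from -2.28 to -1.55.

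The glutathione peroxidases had means on both sides of 0. GPX4, which reduces lipid peroxides in membranes, had ratios of 0.21, 0.85 and 1.07 and a mean of 0.71 ± 0.45 (SD, n = 3 pairs). Its unadjusted limma p was 0.0393, and its levels overlapped between groups: 10.53, 11.72 and 10.63 in superstimulated cows against 10.32, 10.87 and 9.56. GPX1, the main cytosolic glutathione peroxidase, had 1.25, -0.65 and -1.48, so that pair 1 went against pairs 2 and 3. GPX3, the plasma form, showed the same order with 0.65, -0.17 and -1.27, although another GPX3 probe, above the controls on 2 of 6 arrays in each group, varied only from -0.17 to 0.03. GPX1 levels were 10.94, 10.49 and 9.30 in superstimulated cows and 9.69, 11.14 and 10.78 in the others, and GPX3 levels 8.52, 7.42 and 7.496 against 7.87, 7.59 and 8.76, so both genes overlapped between groups. Means over pairs were -0.30 ± 1.398 for GPX1 and -0.27 ± 0.96 for GPX3.

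Of the 7 glutathione transferases, which conjugate glutathione to electrophiles, 5 had a mean below 0. The smallest unadjusted p of any member was that of MGST3, a microsomal transferase with glutathione peroxidase activity, at 0.00507. MGST3 had -0.49, -0.72 and -0.71 in the 3 pairs, a mean of -0.64 ± 0.13 (SD, n = 3 pairs). Its levels did not overlap: superstimulated cows had 10.62, 10.49 and 10.29 and non-superstimulated cows 11.11, 11.21 and 10.995. MGST3 was 1 of 4 members whose 2 groups of cows did not overlap, with MGST2, PRDX5 and MAFG, where 5.9% of all genes did not.

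MGST2, a microsomal transferase that can also make leukotriene C4, had the lowest mean ratio of the members, -2.26 ± 1.90 (SD, n = 3 pairs), with -0.25, -4.03 and -2.49 in the pairs. Superstimulated cows had levels of 9.63, 7.13 and 8.56 and non-superstimulated cows 9.88, 11.16 and 11.06. Only 3 of the 12332 genes had a lower mean, yet the unadjusted limma p was 0.07. A second MGST2 probe was below 0 in all 3 pairs too, but at -0.14, -0.17 and -0.37, so the size of the difference rests on 1 probe; over both probes the mean was -1.24.

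GSTA1, an alpha class transferase abundant in steroid-producing cells, differed most between pairs among the transferases. Its ratio was -1.69 in pair 1, -1.54 in pair 2 and 3.38 in pair 3, which left a mean of 0.05 ± 2.89 (SD, n = 3 pairs). The levels ran from 12.39 in non-superstimulated cow 1 to 8.62 in non-superstimulated cow 3, while superstimulated cows had 10.70, 9.26 and 12.01. MGST1, the first microsomal transferase, had -0.16, -1.33 and 1.07. Its levels were 8.23, 8.80 and 8.31 in superstimulated cows and 8.39, 10.13 and 7.24 in the others, which spread more widely; its probe exceeded the controls on 5 of 6 arrays for non-superstimulated RNA. GSTO1, an omega class enzyme, had -0.15, -0.79 and 1.499, a second GSTO1 probe having a mean of -0.16. GSTM1 and GSTP1, of the mu and pi classes, had means of -0.30 ± 0.48 and -0.05 ± 0.23, with other probes at -0.06 to 0.02 and 0.09 to 0.19. Closely related GSTA and GSTM genes may share sequence with these probes, so a probe named for 1 of them could also measure its relatives.

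**Figure D2:**
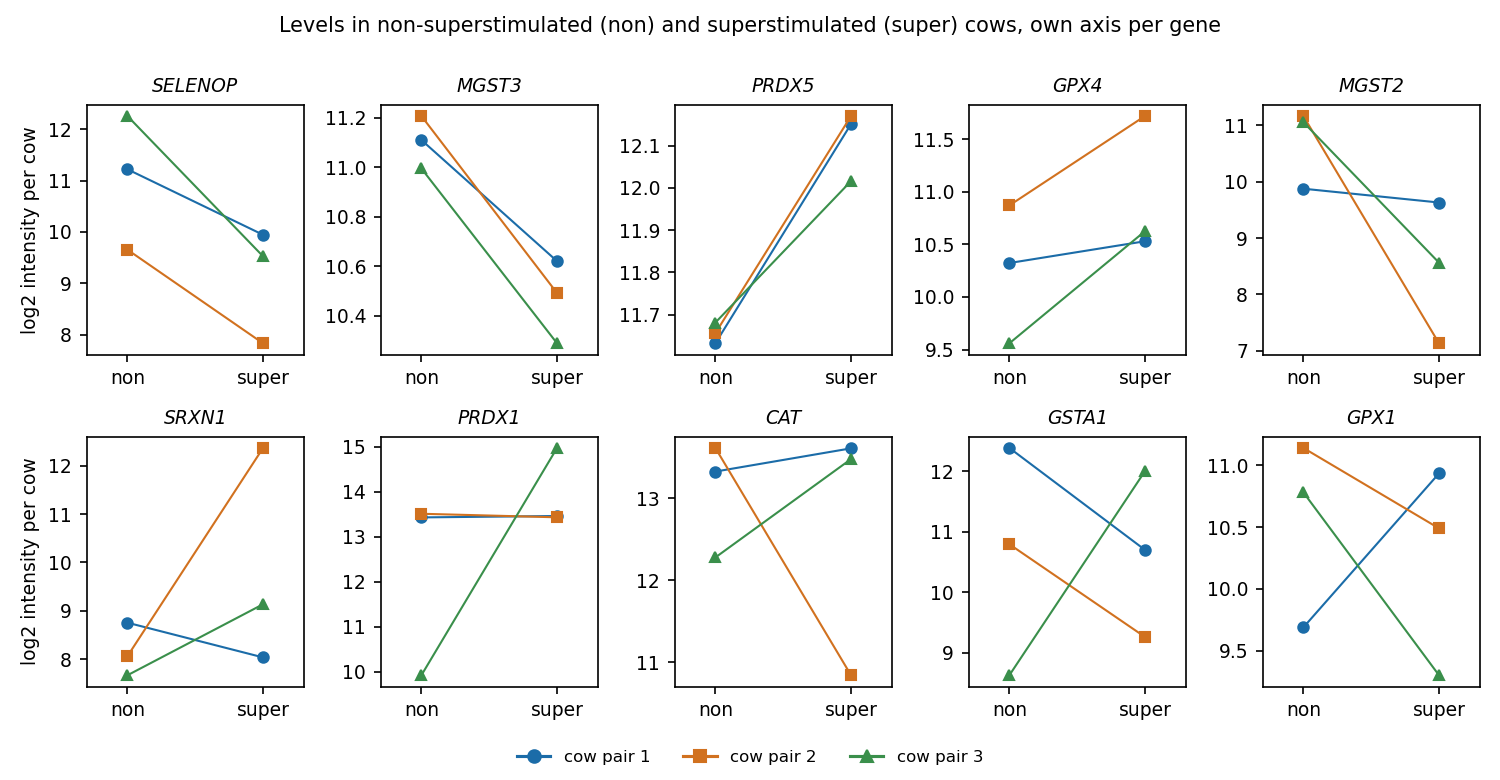
Log2 intensity per cow (y axis, scaled for each gene) in the non-superstimulated and superstimulated cow of each pair, joined by a line, for 10 members. All 3 lines slope down for SELENOP, MGST3 and MGST2 and up for PRDX5 and GPX4, while the lines of SRXN1, PRDX1, CAT, GSTA1 and GPX1 do not share a direction.

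The 6 peroxiredoxins, thiol enzymes that reduce peroxides, all had a mean ratio above 0, from 0.14 for PRDX6 to 1.67 for PRDX1. PRDX5, found in mitochondria, peroxisomes and cytosol, varied least. It had 0.52, 0.51 and 0.34 in the pairs, a mean of 0.46 ± 0.11 (SD, n = 3 pairs), and an unadjusted limma p of 0.0118. Superstimulated cows had levels of 12.15, 12.17 and 12.02 and non-superstimulated cows 11.63, 11.66 and 11.68, without overlap. A second PRDX5 probe gave 0.53, 0.30 and 0.60, a mean of 0.48 ± 0.16. The size depended on the slide, with a mean of 0.15 on arrays 1 to 3 and 0.76 on arrays 4 to 6.

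PRDX1 and PRDX3 owed their means to pair 3. PRDX1, a cytosolic peroxiredoxin, had 0.03, -0.08 and 5.06 in pairs 1, 2 and 3. Non-superstimulated cow 3 had a level of 9.92, and the other 5 cows lay between 13.43 and 14.97. PRDX3, the mitochondrial form, had -0.65, -0.47 and 2.19, and there too non-superstimulated cow 3 was the lowest, at 9.85 against 12.04 to 13.53 in the other cows. Without pair 3 the mean ratio was -0.02 for PRDX1 and -0.56 for PRDX3.

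The other peroxiredoxins differed less. PRDX2, a cytosolic enzyme very abundant in red cells, had -0.02, 0.74 and 1.00, and its second probe 0.29, 0.99 and 1.62. The PRDX2 mean was 0.57 over both slides and -0.03 on arrays 1 to 3 alone. PRDX4, the form of the endoplasmic reticulum, had 0.15, -0.67 and 1.11. PRDX6, which also acts as a phospholipase, had a mean of 0.14 ± 0.32, and its 4 other probes had means of 0.03 to 0.34.

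The thioredoxin genes had no shared sign. SRXN1, sulfiredoxin, which restores overoxidised peroxiredoxins, had -0.72 in pair 1, 4.31 in pair 2 and 1.47 in pair 3, a mean of 1.69 ± 2.52 (SD, n = 3 pairs). Superstimulated cow 2 stood apart with a level of 12.37, and the other 5 cows lay between 7.67 and 9.14. Without pair 2 the mean was 0.38, and a second SRXN1 probe had 0.09, 0.58 and 0.29. TXNRD1, thioredoxin reductase, had -0.32, -0.04 and -0.13, a mean of -0.16 ± 0.14. Its levels overlapped, at 13.51, 13.84 and 13.20 in superstimulated cows and 13.82, 13.88 and 13.33 in the others. Thioredoxin itself, TXN, had a mean ratio of 0.22 ± 0.35. TXN2, the mitochondrial thioredoxin, had -0.18 ± 0.61 on its brightest probe, -0.98 on arrays 1 to 3 and 0.62 on arrays 4 to 6, with 5 other probes at -0.14 to 0.02.

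Catalase and the superoxide dismutases differed strongly between pairs. CAT, which breaks down hydrogen peroxide in peroxisomes, had 0.28, -2.78 and 1.202. Superstimulated cow 2 had a level of 10.84, the lowest, and the other 5 cows 12.28 to 13.62. SOD1, the cytosolic copper-zinc dismutase, had -0.19, -0.62 and 1.97, and its second probe gave -0.27, -0.68 and 1.95. The lowest SOD1 level, 11.47, was that of non-superstimulated cow 3, and the other 5 cows lay between 12.81 and 13.52. SOD2, the mitochondrial manganese enzyme, had -0.55, 0.42 and 0.23, a mean of 0.03 ± 0.52. SOD2 levels lay within a narrow band, 12.82, 13.22 and 13.18 in superstimulated cows and 13.37, 12.80 and 12.95 in the others.

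Among the regulators, NFE2L2 was higher in pairs 2 and 3, at 0.98 and 1.18, and had -0.10 in pair 1. Its mean was 0.69 ± 0.69 (SD, n = 3 pairs), with an unadjusted limma p of 0.111. Superstimulated cows had NFE2L2 levels of 12.61, 13.57 and 12.27, and non-superstimulated cows 12.71, 12.59 and 11.09. KEAP1, its inhibitor, had 0.23, -0.33 and 0.35, with overlapping levels of 8.55, 8.21 and 8.19 against 8.31, 8.54 and 7.84. MAFG, a small MAF partner, had ratios of 0.15, 0.75 and 0.31. Its levels of 8.75, 9.36 and 8.64 in superstimulated cows did not overlap with 8.60, 8.61 and 8.34 in the others. The nearest levels, 8.643 and 8.613, lay close together, while the MAFG ratios of a swap's 2 arrays lay up to 0.13 from their mean. The other partners MAFF and MAFK had means of 0.23 ± 0.53 and -0.07 ± 0.34.

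Classical NRF2 targets showed no shared shift, but HMOX1, NQO1, SLC7A11 and GCLC had low levels, at which the added offset shrinks ratios. HMOX1, the inducible heme oxygenase, had 0.11, -0.17 and -0.79, and NQO1, a quinone reductase, 0.39, -0.84 and 0.78, although NQO1 exceeded the controls on only 4 of 6 arrays in each group. HMOX1 levels were 7.52, 7.27 and 7.56 in superstimulated cows and 7.41, 7.44 and 8.35 in the others, and NQO1 levels 7.61, 6.69 and 7.26 against 7.22, 7.53 and 6.47. The groups overlapped for both. SLC7A11, the cystine importer that feeds glutathione synthesis, had 0.09, 0.37 and -0.03, with levels of 7.78, 7.94 and 7.89 against 7.70, 7.57 and 7.92. FTH1, the ferritin heavy chain, had 0.18 ± 0.30 with a second probe at 0.20. GCLM, the modifier subunit of the first enzyme of glutathione synthesis, had 0.02, 0.16 and 2.18, a mean of 0.79 ± 1.206. Superstimulated cow 3 was highest, at 12.16, and non-superstimulated cow 3 lowest, at 9.98, with the other 4 cows between 10.85 and 11.08. The catalytic subunit GCLC had 0.24, 0.02 and -0.56 and levels of 7.58, 7.14 and 6.87 against 7.34, 7.12 and 7.43. Its probe was much dimmer than that of GCLM and exceeded the controls on 5 of 6 arrays for superstimulated RNA, which limits the comparison of the 2 subunits. GSS, glutathione synthetase, had -0.08 ± 0.03 but was dim. It exceeded the controls on 2 of 6 arrays for superstimulated RNA and on 4 of 6 for the other. GSR, glutathione reductase, had 0.29 ± 0.37. Its ratios were 0.385, 0.128 and 1.141 on arrays 1 to 3 and -0.054, -0.145 and 0.274 on arrays 4 to 6.

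Of the enzymes that supply NADPH, TKT, transketolase, had -0.16, -1.52 and 0.09, and superstimulated cow 2 was lowest with 10.29 where the other 5 cows had 11.64 to 11.81. ME1, malic enzyme, had -0.26 ± 0.33. PGD and TALDO1, of the pentose phosphate pathway, had 0.07 ± 0.16 and -0.11 ± 0.17, and 4 other TALDO1 probes had means of -0.18 to -0.03.

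The cow pairs differed from each other for most members. The error here was the disagreement between the 2 arrays of a swap that remained after a dye effect common to the 3 pairs. It is technical and does not cover further animals. Against it, the ratios of the 3 pairs differed for 33 of 41 members, or 80.5%, at an adjusted limma p of 0.05. The share of all genes was 51.1%, and of genes above the controls in both channels on all arrays 70.2%, where 29 of 36 such members passed. With the values of the authors' deposited table the same test gave 16 of 41, or 39%, against 17.3% of all genes. The smallest adjusted p values were those of GSTA1 (8.9e-07), SRXN1 (1.2e-06), CAT (1.7e-06), PRDX1 (2.4e-06), MGST2 (6.2e-06) and GPX1 (1.1e-05). PRDX5, MGST3, TXNRD1, GSS, SLC7A11, GSTP1, PGD and TALDO1 did not pass, which does not show that their pairs were alike.

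**Figure D3:**
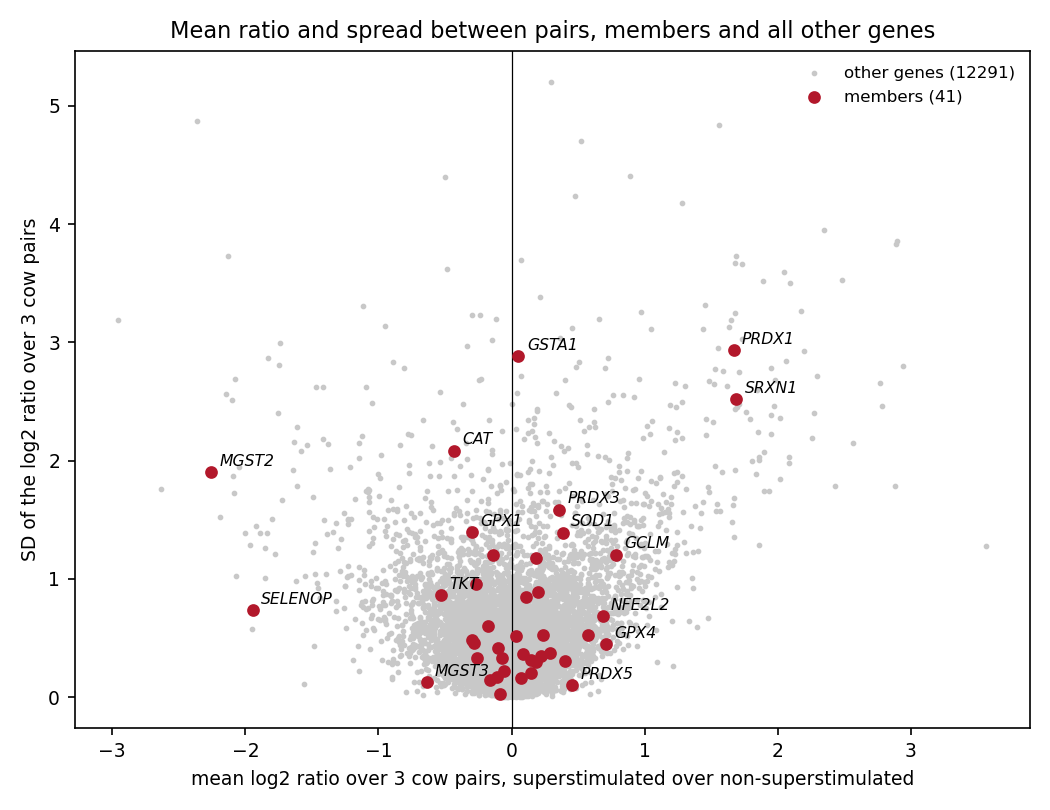
Mean (x axis) and SD (y axis) of the log2 ratio over 3 cow pairs, with members in red and all other genes in grey. PRDX1, GSTA1 and SRXN1 have SDs of 2.93, 2.89 and 2.52, whereas MGST3 and PRDX5 combine means of -0.64 and 0.46 with SDs of 0.13 and 0.11.

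The spread over pairs had a median SD of 0.52 for the members against 0.27 for all genes, and of 0.50 against 0.44 among genes above the controls in both channels on all arrays. The SD of PRDX1 and that of GSTA1 exceeded 99.6% of all genes, and that of SRXN1 99.3%. At the other end lay the dim GSS, with an SD above that of 2.12% of genes, followed by PRDX5 and MGST3, with SDs above those of 22.5% and 28.6%.

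Single pairs were also set against the dye swap error, a test that holds for the 2 extracts of a pair only. In pair 1, 4 members passed as higher and 6 as lower, or 9.76% and 14.6%, where 3.83% and 6.92% of all genes did. In pair 2, 12 passed as higher and 15 as lower, or 29.3% and 36.6% against 13.8% and 21.8%. In pair 3, 20 passed as higher and 10 as lower, or 48.8% and 24.4% against 27.3% and 19.6%. Every share lay above that of all genes, beside a greater share of bright probes among the members; the part of brightness in this was not tested.

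Passing in all 3 pairs was seen for 8 members, where 6.15% of all genes did so, and 3 of the 8 kept 1 sign, where 1.4% did. Those 3 were SELENOP and MGST3, lower, and PRDX5, higher. The other 5 were NQO1, SRXN1, PRDX3, GPX1 and GSTA1. In all, 14 members passed with opposite signs in different pairs, where 16.4% of all genes did.

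For 12 members the most distant of the 6 cows lay at least 1 log2 unit from the next, where 10.7% of all genes had such a cow. Among genes above the controls in both channels on all arrays it was 11 of 36 members and 15.1% of genes. Non-superstimulated cow 3 was the lowest for 5 of them (PRDX1, PRDX3, SOD1, NFE2L2 and GSTO1), as for 2.89% of all genes. Superstimulated cow 2 was the lowest for 4 (SELENOP, CAT, MGST2 and TKT), as for 1.41% of all genes, and the highest for SRXN1, as for 2.12%. Superstimulated cow 3 was the highest for GCLM, as for 1.14% of all genes, and non-superstimulated cow 2 for MGST1, as for 0.0324%. In tissue samples fewer cells of a type and less RNA per cell cannot be told apart, and these levels are no exception.

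**Figure D4:**
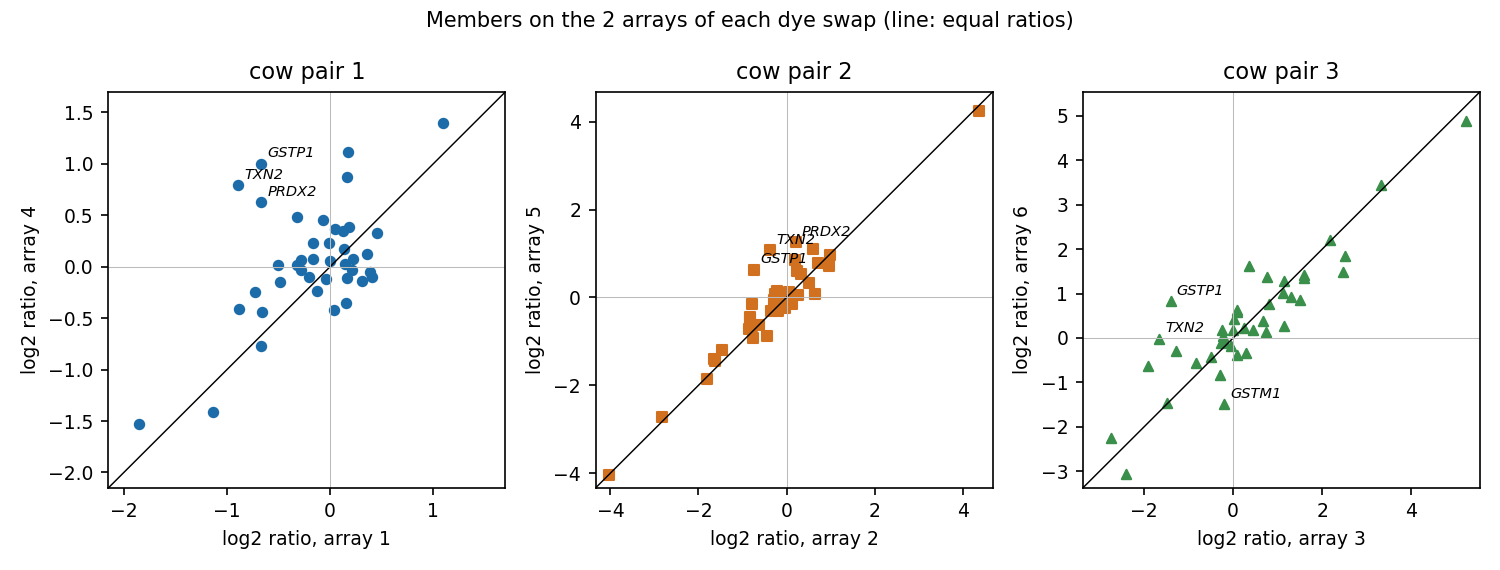
Log2 ratio of each member on the first (x axis) and swapped (y axis) array of its pair, with the 3 members farthest from the line of equal ratios named. Members spread farther along the line in pairs 2 and 3 than in pair 1. Those farthest from it are TXN2, GSTP1 and PRDX2 in pairs 1 and 2 and GSTP1, TXN2 and GSTM1 in pair 3.

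The 2 arrays of a swap correlated more closely in pairs 2 and 3 than in pair 1, but a correlation rises with the spread of the ratios. Members ran from -1.69 to 1.25 in pair 1, from -4.03 to 4.31 in pair 2 and from -2.73 to 5.06 in pair 3. The correlations therefore do not show that single ratios were repeated less well in pair 1. Across the 41 members, which are not independent replicates, the 2 arrays correlated at 0.538 in pair 1, 0.944 in pair 2 and 0.886 in pair 3, and across all genes at 0.305, 0.855 and 0.724. GSTP1 was least alike, with its 2 arrays up to 1.12 log2 units from their mean, followed by TXN2 with 0.84. All arrays of a dye orientation shared a slide, so slide and dye cannot be told apart.

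Several members were measured by more than 1 kept probe. Of 14 such members, 5 had probes with means of opposite sign, namely GSS, TXN2, GSTM1, GSTP1 and GSTO1. The probes of SOD1, FTH1 and PRDX5 lay close together, whereas those of SRXN1 and MGST2 shared a sign and differed in size by more than 1 log2 unit.

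**Figure D5:**
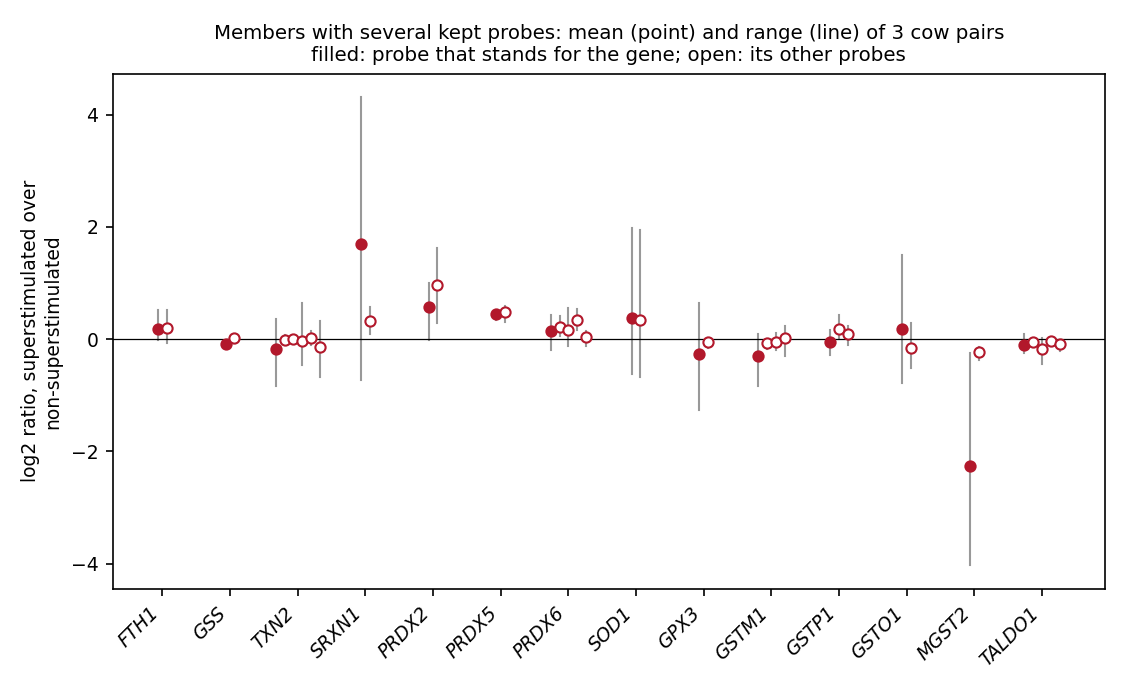
Mean log2 ratio (points) and range over 3 cow pairs (lines) of every kept probe of the 14 members with several probes, filled for the probe that stands for the gene and open for the others. The second probes of SRXN1 and MGST2 lie at 0.32 and -0.23, nearer 0 than the filled ones at 1.69 and -2.26.

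Other genes of these pathways were no more uniform. Of 110 further genes in 7 lists, 86 had a kept probe, 38 with a mean above 0 and 48 below, and 0 passed an adjusted limma p of 0.05, while 3 had an unadjusted p under 0.05, a share close to the 3.59% of all genes. Those 3 were UGDH, which makes UDP-glucuronic acid, at 0.56 ± 0.20, CREBBP, a coactivator, at -0.33 ± 0.11, and SELENOS, a selenoprotein of the endoplasmic reticulum, at 1.13 ± 0.76. The median was -0.07 for 8 other NRF2 regulators, -0.10 for 18 other glutathione genes and -0.06 for 13 other thioredoxin fold and repair genes. It was 0.02 for 18 selenoprotein genes, -0.13 for 10 heme and iron genes, -0.02 for 13 other detoxification and NADPH genes and 0.06 for 6 oxidant-producing enzymes.

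Of the 18 genes of selenoproteins and their synthesis, 10 had a mean above 0 and 8 below. SELENOS had 0.31, 1.81 and 1.27 in the pairs, and SELENOK, another selenoprotein of that compartment, 0.15, 1.83 and 1.25, both above 0 throughout. SELENON, a selenoprotein of the same compartment, and SEPHS1, a selenophosphate synthetase relative, had the sign of SELENOP in each pair, with -0.10, -0.18 and -1.01 and with -0.16, -0.71 and -0.03. Both were chosen after their values were seen. In the heme and iron list SLC40A1, the iron exporter ferroportin, had -0.24, -2.61 and -2.67, and HMOX2, the constitutive heme oxygenase, 0.05, 1.95 and 1.25. Their unadjusted limma p values were 0.053 and 0.0805. GPX7 and GSTZ1, of the glutathione list, had -0.27 ± 0.12 and -0.63 ± 0.78. NFE2L1, a relative of NRF2, had -0.22 ± 0.38, and CYB5R3, of the detoxification and NADPH list, 0.19 ± 0.32. Of the repair genes, MSRB2 had -0.26 ± 0.17 and GLRX2 0.88 ± 1.22. XDH, xanthine dehydrogenase, and RAC2 had 0.51 ± 0.47 and 0.28 ± 0.31.

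The 5 genes whose ratios in the 3 pairs lay nearest to those of SELENOP, by Euclidean distance over these 3 values, were RALYL (distance 0.28), SERPINA5 (0.93), FBXW4 (0.99), RFFL (1.08) and BMPR1B (1.09). RALYL had -1.35, -1.98 and -2.51. With 3 pairs this is a description of likeness and carries no test.

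Markers of cell types were checked beside these values. Of the granulosa cell list, 9 of 10 genes had a kept probe and 7 exceeded the controls in both channels on all arrays, among them FSHR, CYP19A1, INHA and AMH, with a list median of -0.04 (range of single genes -0.86 to 0.61). Of the theca and stroma list 6 of 10 did so (median 0.03, range -0.53 to 2.78), of hepatocyte genes 3 of 8 and of leukocyte genes 2 of 11. It was 1 of 8 for epithelium, 1 of 10 for the oocyte list and 0 of 10 for both endothelium and red cells. The list medians of the other types lay between -0.04 and 0.04. These medians cover single markers with large ratios, of which 4 were chosen after their values were seen. LUM, lumican of stromal matrix, had -0.06, 4.03 and 4.38, COL3A1, a fibrillar collagen, 1.01, -0.45 and 3.10, and DCN, decorin, 0.15, 2.30 and 0.30. FSHR, the granulosa cell receptor for FSH, had -0.18, -0.72 and -0.68, below 0 on all 6 arrays, with an unadjusted limma p of 0.0361. These 4 do not stand for their lists. Of the 9 granulosa genes 4 had a mean above 0, INHA the highest at 0.61, and 5 below. Of the 10 theca and stroma genes 7 had a mean above 0 and 3 below, ACTA2 the lowest at -0.53. The part of cell mixture in the members' ratios was not tested.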

How the data were processed

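Per the labels' protocols, dissected samples were snap frozen, and their Trizol-extracted RNA went through 2 rounds of T7 amplification and chemical Cy3 or Cy5 labelling; amplification of small inputs can distort levels. Per the file headers, the authors' scanner tables give each spot's foreground intensity beside that of its surroundings, not yet subtracted. The authors' own deposited log2 values served as an alternative. How these were normalized is not stated in the labels; they correlated with red over green of the same array at 0.739 to 0.868, with column medians of -0.00433, -0.0115, -0.0348, -0.011, -0.00625 and -0.00797.

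Of 45220 spots, 8 without a name and 42 ignored by the scanner software were left out. Foreground means were corrected with normexp (offset 50) and normalized within arrays by loess, with 1417 control spots at weight 0. Probes above the 95th percentile of 756 negative controls in at least 1 channel on at least 3 arrays were kept. Symbols came from the platform annotation (21790 probes with 1 symbol, none with several, the others unnamed here), updated by name through RefSeq (ARS-UCD2.0; 20068 by symbol, 1644 by synonym, 78 unmatched). The brightest kept probe stood for a gene.

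Both arrays of a swap share their extracts and were averaged. For each gene limma tested whether the 3 pairs' mean was 0 (lmFit, eBayes, Benjamini-Hochberg over all genes, threshold 0.05). Differences between pairs used 6 arrays with terms for pair and dye. For levels per cow the channels were separated after loess and scaled by Aquantile. The pairing is that of the shared arrays. Whether the animals of a pair were otherwise matched is not stated. R 4.3.3, limma 3.58.1, Python 3.11.15 and matplotlib 3.10.9 were used, and the steps were tested on simulated data.

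The members and lists were chosen with earlier results of these data known, so none is independent support. Full values went to 19 members fixed by name and to the 6 with the smallest p for the group difference and for the difference between pairs; each pathway list named its 2 genes of smallest p. Alternatives covered background correction, normalization, filters, probe choice, slide, pairing and left-out pairs. No sequences or coordinates were used.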

Additional observations from a re-analysis of the deposited data

How the results depend on the processing

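No alternative brought a member past an adjusted limma p of 0.05. The count of 0 genes and 0 probes became 1 gene (RAB15) and 2 probes with the pair as a random replicate block on 6 arrays, and 1 gene and 8 probes with 6 independent arrays, which counts each extract pair as 2 replicates. At an unadjusted p the 4 members became 7 with 6 independent arrays, where the share of all genes went from 3.59% to 11.4%, and 2 with an eBayes trend (SELENOP and MGST2; 3.14% of all genes). Without a pair they were 2 to 6, where the share of all genes was 1.47% to 5.24%. SELENOP and MGST3 were the 2 without pair 2, the setting with the share of 1.47%. Members with 1 sign in all pairs went from 10 to 17 on arrays 1 to 3 alone, and all genes from 23% to 39.8%. The deposited table gave 2136 genes (17.3%) and 16 members that differ between pairs. The dyes of the design text put 18 rather than 23 members above 0. The median of the members ranged from -0.0226 to 0.126 without a pair and was 0.077 without SELENOP. That setting and the comparisons among genes above the controls on all arrays were chosen after seeing the data.

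Of 573 member values under settings that kept all pairs, 550 kept their direction and 23 reversed. On arrays 1 to 3 alone the reversed values were KEAP1 -0.0494, GCLC 0.031, PRDX2 -0.0303, PRDX6 -0.0039, SOD2 -0.0613, GSTA1 -0.0532, GSTM1 0.0255, PGD -0.188 and TALDO1 0.00757. On arrays 4 to 6 alone they were SLC7A11 -0.1, TXN2 0.619, PRDX4 -0.0182, GPX3 0.141, GSTP1 0.825 and MGST1 0.0675. In the deposited table they were KEAP1 -0.101, MAFF -0.00393, GSS 0.00336, SOD2 -0.0613, GSTP1 0.0306 and GSTO1 -0.0309. GSTA1 had -0.0285 without background correction and GSTP1 0.0747 as a mean over probes. The cause was not tested.

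Leaving out 1 pair reversed 20 members, which then ranged as follows: KEAP1 -0.048 to 0.292, MAFF -0.0712 to 0.402, MAFK -0.181 to 0.123, NQO1 -0.223 to 0.585, GCLC -0.272 to 0.13, TXN2 -0.445 to 0.15, PRDX1 -0.0241 to 2.54, PRDX3 -0.557 to 0.86, PRDX4 -0.257 to 0.632, PRDX6 -0.00111 to 0.312, SOD1 -0.408 to 0.889, SOD2 -0.161 to 0.327, CAT -1.25 to 0.743, GPX1 -1.07 to 0.298, GPX3 -0.721 to 0.236, GSTA1 -1.61 to 0.923, GSTP1 -0.165 to 0.0601, GSTO1 -0.469 to 0.674, MGST1 -0.743 to 0.457 and PGD -0.00871 to 0.152. Signal over background limits GSS, NQO1, MAFF, GCLC and MGST1, whose dim ratios the added offset shrinks.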
